A study of Homo sapiens with 15 samples.

Results

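Interferon-stimulated genes are the genes that a cell switches on when it senses interferon, the cytokine that warns of viral infection. The members were the rows of the expression table whose gene column carried a name from a list of 36 interferon-stimulated genes, and 35 of the 36 were analysed here, out of 60558 genes in the table. The list came from general knowledge of the response and used no measured value, but it was chosen with earlier results of these data known. The data are 15 RNA-seq libraries of RPE1-hTERT cells, a telomerase-immortalized human line from the retinal pigment epithelium, in which CCNE1, the gene for cyclin E1, was placed under doxycycline control by a pINDUCER20 virus. All libraries come from this transduced line, which the study derived from a single cell, so controls carry the construct as well.

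There were 5 groups of 3 libraries. Control cells received 0 ng/ml doxycycline. Acute cells had 20 ng/ml doxycycline for 2 d, crisis cells for 15, 18 and 18 d, and adapted cells for 39, 41 and 51 d. Recovery cells, which the labels call re-adapted, had 31, 42 and 46 d of induction and were then grown for 18, 46 and 17 d without it. These days are those of the labels and differ from the study's own description of the stages. Crisis replicates 2 and 3 ran past the range of days in its text, and all adapted cells past its approximate day. For recovery, its text and figure legend give different times without doxycycline, and the labelled times lie on both sides of that in the text. The study describes the replicates as independent adaptations begun weeks apart. The groups are stages of a culture history and not doses. Expression is given in TPM, a transcript's reads per length scaled to the same total in every library. The unit does not retain the depth of a library, and how many reads a value rests on is unknown.

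Type I interferon binds the receptor IFNAR1-IFNAR2, and the kinases JAK1 and TYK2 then phosphorylate STAT2, which acts with IRF9 in the factor ISGF3. ISGF3 binds a short element, the interferon-stimulated response element (ISRE), in the promoters of its target genes. DNA or RNA in the wrong compartment can start the same response through sensors such as cGAS and RIG-I, and cells under replication stress can leak DNA into the cytoplasm. Many interferon-stimulated genes also have a basal level in unstimulated cells, kept up in part by IRF1.

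Most members with a promoter window shared a short motif in it, which their selection had not used. RefSeq promoter windows on GRCh38.p14, each with 250 bases before and 50 bases after a transcript start, were searched on both strands for GAAA, any pair of bases and GAAA again, the core of the ISRE. A window was matched for 27 of the 35 members. The motif was in 20 of these 27 (74.1%), while 1195 of 27305 genes with a window (4.38%) and 302 of the 7955 tested for expression (3.8%) had it. Among the 27, the motif was in 12 of 19 members expressed well enough to be tested and in 8 of 8 members below that level. The 7 members with a window and no such letters in it were STAT2, IRF9, IRF1, SP100, SP110, HERC6 and IFI35. IFIT2, IFITM2, IRF7, MX2, OAS2, OASL, TRIM22 and USP18 had no window.
The following stretches are from some of the motif carriers described below, with the motif in capitals, 5′ to 3′ on the strand of the gene. STAT2, IRF1, HERC6, SP100, SP110 and TRIM22, which the results below also follow, have no such stretch to show. ISG15 is at chr1:1013375-1013414 (plus), IFI44 at chr1:78649756-78649788 (plus), IFIT5 at chr10:89414508-89414547 (plus), PARP14 at chr3:122680795-122680834 (plus), IFITM3 at chr11:320871-320910 (minus), IFITM1 at chr11:313985-314024 (plus) and BST2 at chr19:17405736-17405775 (minus).
ISG15: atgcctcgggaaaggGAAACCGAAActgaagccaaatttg
IFI44: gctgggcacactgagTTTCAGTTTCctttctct
IFIT5: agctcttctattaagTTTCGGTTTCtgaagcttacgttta
PARP14: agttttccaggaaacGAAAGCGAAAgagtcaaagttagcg
IFITM3: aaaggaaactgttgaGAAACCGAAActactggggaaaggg
IFITM1: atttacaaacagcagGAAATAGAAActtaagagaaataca
BST2: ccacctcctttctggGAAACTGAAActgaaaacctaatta
In IFI44 and IFIT5 the motif reads as its reverse complement, since it lies on the opposite strand. The gene ranges given with the values are those of GENCODE and can begin upstream of these RefSeq starts. A match of letters is a description of the promoter and not a site that was shown to be bound.

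The deposited libraries each summed to 999999.9 to 1000000.2 TPM, and 26841 to 28725 genes had a value above 0. Vimentin, keratin 8 and keratin 18 were among the abundant transcripts, and MITF and OTX2, transcription factors of the pigment epithelium, were at 13.2 to 26.1 TPM. RPE65, the visual cycle isomerase of mature pigment epithelium, was listed at 0 in all 15 libraries. Of the other markers of that lineage, RLBP1, TYR, TYRP1 and TTR reached at most 0.565 TPM. PMEL reached 1.32 TPM, BEST1 1.51 TPM and SERPINF1 4.64 TPM. The cells thus carried MITF and OTX2 with the other listed markers of that lineage low or at 0. The epithelial markers CDH1 and EPCAM reached at most 0.369 TPM. Of 10 leukocyte markers, CD68, a lysosomal protein found in many cell types, was at 44.1 to 73.9 TPM. The other leukocyte markers reached at most 0.84 TPM, and CD3E, MS4A1 and TYROBP were listed at 0 throughout, so the defining markers of blood cells were at or near 0. The libraries also differed in a trend of expression with GC content, and some of the values that this touches are given with a correction below. Fold changes printed without one are uncorrected and may hold a part of this trend.

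Basal expression of the members was low to moderate. The mean over 15 libraries was under 1 TPM for 5 members, 1 to 5 TPM for 9, 5 to 20 TPM for 15 and at least 20 TPM for 6, with a median of 9.42 TPM. IFITM3, a membrane protein that blocks virus entry, had the highest mean at 153 TPM, followed by SP100, a nuclear body protein, at 62.1 TPM, and IFITM2 at 45.4 TPM. TRIM22 followed at 41.9 TPM, STAT2 at 37.5 TPM and IRF1 at 21.6 TPM. Members that are often used to read an interferon response stood at different levels. IFIT3 averaged 16.8 TPM, IFI44L 12.2 TPM, IFI6 11.0 TPM, ISG15 8.21 TPM and IFIT1 4.35 TPM. Lower still, MX1 averaged 1.26 TPM, USP18 1.01 TPM, IFI27 0.988 TPM, OAS2 0.968 TPM and OASL 0.248 TPM. In bulk RNA a low value can come from few cells with the transcript or from little of it in every cell, and these cannot be told apart.

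Induction of cyclin E1 was then compared with control at each stage, to ask whether the interferon response changed as cells passed through acute induction, crisis and adaptation and after removal of doxycycline. The 10196 genes that averaged 5 TPM or more were tested together with limma on log2(TPM + 1), and the 21 members among them are called tested. The other 14 were IRF7, IFIT1, IFIT2, IFITM1, BST2, OAS2, OASL, MX1, MX2, USP18, HERC5, IFIH1, DDX60 and IFI27, which are described by their values. Calls were made at an adjusted p under 0.01, with the Benjamini-Hochberg method over all tested genes.

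No tested member was called at any stage. The count was 0 of 21 in acute against control cells, where 0.049% of all tested genes were called. It was 0 of 21 in crisis (0.0392% of all genes), 0 of 21 in adapted (0.049%) and 0 of 21 in recovery cells (0.0392%), each against control. It was also 0 of 21 in adapted against acute cells (0.0196% of all genes) and in recovery against adapted cells (0.0294%). The moderated F test over the 5 groups called 0 of 21 as well (0.0687% of all genes). Few genes of any kind were called in these comparisons, so a count of 0 is close to the background. At an adjusted p under 0.05 the counts remained 0, while 7 (0.0687%), 7 (0.0687%), 55 (0.539%) and 113 (1.11%) of all tested genes were called in acute, crisis, adapted and recovery cells against control.

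Estimates without adjustment give a sense of how far the members moved. At an unadjusted limma p under 0.05, 1 of 21 members was higher in acute cells than in control (7.52% of all genes) and 0 were lower (1.67%). In crisis cells 2 were higher than in control (9.32%) and 0 lower (1.83%). In adapted cells 3 were higher (11.4%) and 2 lower (9.01%). In recovery cells 7 were higher (19.7%) and 0 lower (8.88%). Against acute cells, 2 were higher in adapted cells (1.36%) and 0 lower (4.89%), and against adapted cells, 3 were higher in recovery cells (4.98%) and 0 lower (2.06%). By the F test, 3 of 21 members had an unadjusted p under 0.05 (17.1% of all genes), namely IFI44 at 0.0130, IFITM3 at 0.0357 and STAT2 at 0.0432.

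The typical shift of a member was small. Against control, the 21 members had a median log2 fold change of −0.03 in acute cells, with 0.06 over all tested genes, and of 0.04 in crisis cells, with 0.08 over all. In adapted cells the medians were 0.05 for members and 0.05 for all genes, and in recovery cells 0.18 for members and 0.08 for all genes. The 95% interval of the fold change lay within 1 log2 unit of 0 for 21 of 21 members in acute cells and 21 of 21 in crisis cells. It did so for 20 of 21 in adapted cells and 20 of 21 in recovery cells, where IFI44 reached past it, with upper limits of 1.16 and 1.02. These intervals bound the tested members only. In simulated data with the spread of these libraries, 61 of 67 genes shifted by 1 log2 unit and 28 of 67 shifted by 0.5 were called in the acute comparison. A further 66 genes were shifted by 2 units in it, while only 5 genes of any kind were called in acute cells in the data. An adjusted p is easier to pass when more genes change, so these shares cannot be carried over to the members.

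**Figure D1:**
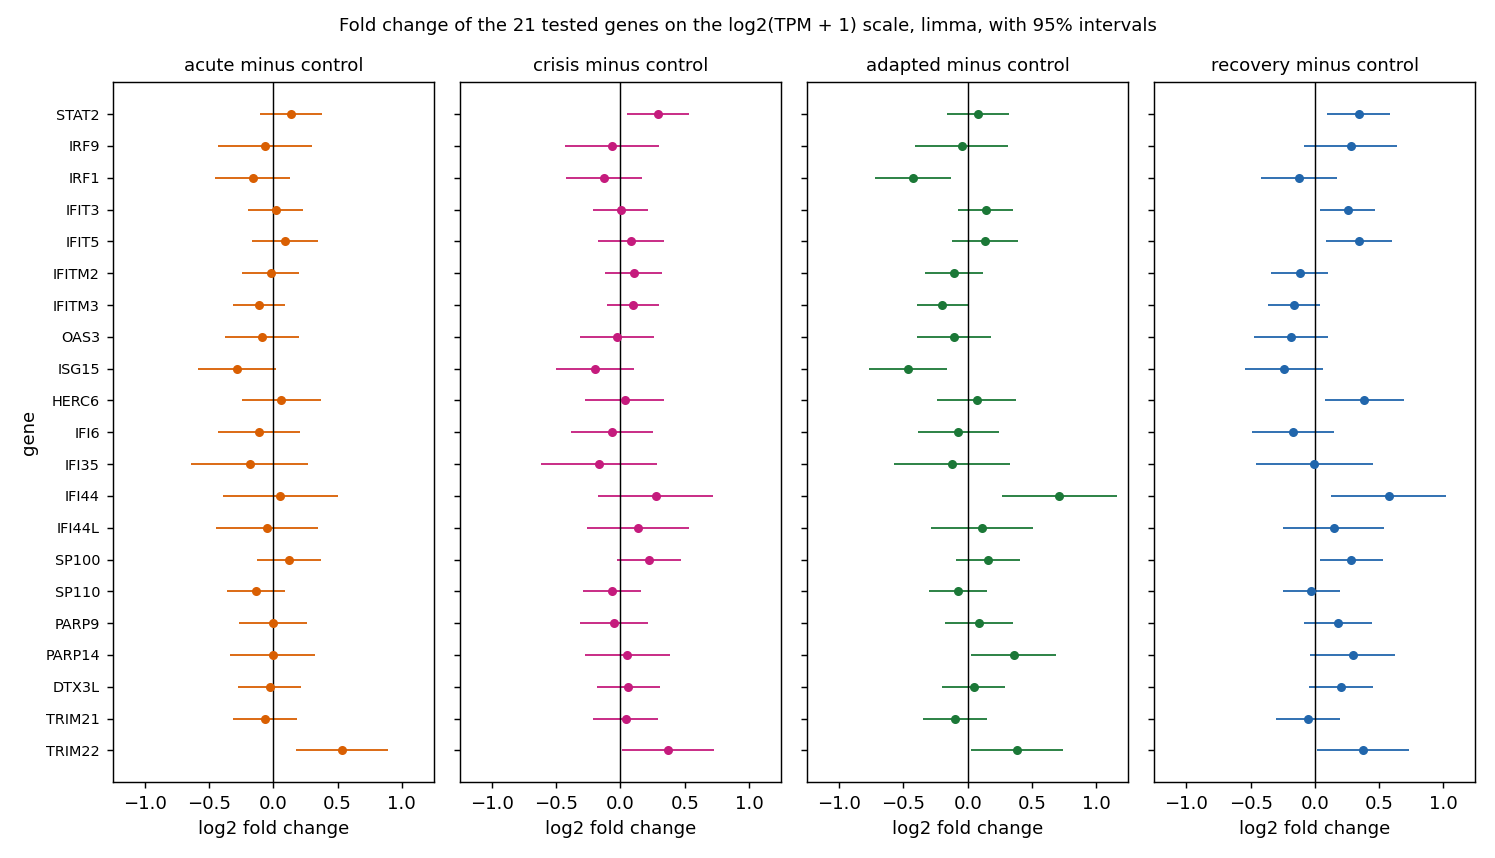
Fold change of the 21 tested interferon-stimulated genes against control at each stage, on the log2(TPM + 1) scale, with points for the estimates and bars for the 95% intervals from limma. Most intervals cross 0 in each panel, and the widest reach is that of IFI44 in adapted cells, up to 1.16.

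Transcripts of STAT2 and IRF9 were present in every library. STAT2 (chr12:56341597-56360203 on hg38), the subunit specific to type I and type III interferon signalling, was at 34.7, 30.8 and 33.4 TPM in control cells, 39.1, 32.5 and 37.9 TPM in acute cells, 44.2, 39.4 and 38.3 TPM in crisis cells, 33.9, 35.6 and 35.0 TPM in adapted cells and 35.5, 40.9 and 50.8 TPM in recovery cells. Crisis and recovery cells lay above control cells without overlap, and recovery replicate 3 was the highest of all libraries. For STAT2 the log2 fold change was 0.29 in crisis (SE 0.11, limma adjusted p = 0.363) and 0.34 in recovery cells (SE 0.11, limma adjusted p = 0.0926) against control. It was 0.26 in recovery against adapted cells (SE 0.11, limma adjusted p = 0.667). Without recovery replicate 3, the recovery estimates of STAT2 were 0.20 against control and 0.13 against adapted cells.

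IRF9, the DNA-binding subunit of ISGF3, was at 16.5, 11.6 and 13.5 TPM in control cells, 16.1, 11.4 and 12.2 TPM in acute cells, 15.4, 12.3 and 11.8 TPM in crisis cells, 12.2, 11.3 and 16.8 TPM in adapted cells and 17.4, 14.2 and 19.4 TPM in recovery cells. Its groups overlapped in all comparisons with control.

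IRF7, the amplifier that drives the later wave of interferon, was at 1.12, 1.05 and 0.734 TPM in control cells, 0.394, 0.486 and 0.331 TPM in acute cells, 0.334, 0.474 and 0.194 TPM in crisis cells, 0.304, 0.633 and 0.933 TPM in adapted cells and 0.420, 0.456 and 0.289 TPM in recovery cells. Acute, crisis and recovery cells lay below control without overlap, but at levels near and below 1 TPM, under the 5 TPM minimum of the main fit. An alternative fit with no minimum called no member. IRF1 (chr5:132440440-132508719), an activator that also maintains basal expression, was at 24.2, 24.1 and 24.0 TPM in control cells, 21.4, 18.7 and 24.6 TPM in acute cells, 24.5, 22.8 and 18.9 TPM in crisis cells, 17.9, 18.7 and 16.5 TPM in adapted cells and 20.0, 18.8 and 28.4 TPM in recovery cells. The adapted libraries were all below the control libraries and at or below the lowest acute library, and the control libraries lay close together. Its log2 fold change was −0.43 in adapted cells against control (SE 0.14, limma adjusted p = 0.125) and −0.26 against acute cells (SE 0.14, limma adjusted p = 0.827). In recovery against adapted cells it was 0.30 (SE 0.14, limma adjusted p = 0.692), or 0.13 without recovery replicate 3. IRF1 shares exon sequence with the antisense transcript IRF1-AS1 over 2805 bp, and since no source used here gives the strand setting of the counting, reads of the pair may not be separated.

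The IFIT family binds viral RNA, and its 4 members lie within 137912 bp on chromosome 10 in the order IFIT2, IFIT3, IFIT1 and IFIT5. IFIT5, an RNA-binding protein of the family, was at 10.6, 10.9 and 13.9 TPM in control cells, 13.4, 12.4 and 11.7 TPM in acute cells, 13.1, 11.3 and 13.0 TPM in crisis cells, 12.2, 13.3 and 13.5 TPM in adapted cells and 13.8, 14.3 and 17.5 TPM in recovery cells. Recovery replicate 3 was the highest library, and 1 control library overlapped the recovery range. In recovery against control cells it gave a log2 fold change of 0.34 (SE 0.12, limma adjusted p = 0.0996) and was 0.15 after correction for GC content (limma adjusted p = 0.381). IFIT3, the scaffold of the IFIT complex, had 17.9, 18.5 and 20.7 TPM in recovery cells, against 15.3, 14.3 and 17.8 TPM in control cells. The lowest recovery and the highest control library nearly met. IFIT1 and IFIT2 ranged from 2.88 to 7.15 TPM, and the recovery libraries of IFIT2 (3.79, 4.40 and 7.15 TPM) exceeded those of control cells (3.20, 2.88 and 3.41 TPM).

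IFITM3 was at 170, 167 and 144 TPM in control cells, 135, 143 and 167 TPM in acute cells, 185, 171 and 159 TPM in crisis cells, 141, 147 and 131 TPM in adapted cells and 140, 137 and 151 TPM in recovery cells. Crisis libraries were mostly high and adapted libraries low, with overlap between each stage and control. Its log2 fold change was 0.10 in crisis (SE 0.09, limma adjusted p = 0.693) and −0.20 in adapted cells (SE 0.09, limma adjusted p = 0.251), and it was −0.03 in adapted cells after GC correction. IFITM2, its neighbour and close relative, was at 51.5, 48.2 and 39.6 TPM in control cells, 41.5, 43.3 and 52.3 TPM in acute cells, 51.2, 51.8 and 46.2 TPM in crisis cells, 43.7, 43.1 and 41.7 TPM in adapted cells and 41.3, 40.9 and 45.4 TPM in recovery cells. IFITM2 overlapped control at every stage. IFITM1, IFITM2 and IFITM3 lie within 25821 bp on chromosome 11 and are near-identical copies in part, so how their reads were shared out is uncertain.

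IFITM1 was named after its values were seen, because each stage lay above control in it. This restriction factor of the plasma membrane (chr11:310041-315272) was at 1.08, 0.900 and 1.28 TPM in control cells, 1.68, 1.84 and 2.13 TPM in acute cells, 3.47, 2.90 and 2.62 TPM in crisis cells, 2.29, 1.59 and 1.81 TPM in adapted cells and 1.60, 1.67 and 2.45 TPM in recovery cells. No stage overlapped control, and crisis cells were the highest group, at 3.00 ± 0.430 TPM against 1.09 ± 0.192 TPM in control cells (SD, 3 libraries each). In a fit of all genes that averaged 1 TPM or more, the log2 fold change was 0.93 in crisis (SE 0.16, limma adjusted p = 0.0439), which does not pass the threshold of 0.01. In the same fit it was 0.47 in acute (limma adjusted p = 0.428), 0.47 in adapted (limma adjusted p = 0.154) and 0.47 in recovery cells (limma adjusted p = 0.116). Over the other settings tried for crisis cells, the adjusted p of IFITM1 ran from 0.0269 without recovery replicate 3 to 0.226 without control replicate 2. IFITM1 shares 351 bp of exon with a readthrough gene model on its own strand and 176 bp with an antisense transcript.

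BST2, or tetherin, which holds budding virus at the cell surface, was likewise named after its values were seen, and was at 0.651, 0.848 and 0.833 TPM in control cells, 1.87, 0.749 and 1.61 TPM in acute cells, 2.10, 1.21 and 3.28 TPM in crisis cells, 2.59, 1.69 and 1.38 TPM in adapted cells and 1.36, 1.28 and 2.27 TPM in recovery cells. Crisis, adapted and recovery cells lay above control without overlap, and the crisis libraries spread from 1.21 to 3.28 TPM. The motif and its surroundings in IFITM1 and BST2 are printed above.

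The OAS enzymes meet double-stranded RNA and then make the messenger that activates RNase L. OAS3, the only one tested, ranged from 13.4 to 21.0 TPM with overlap between each stage and control. OAS2 was highest in recovery cells, at 1.60 ± 0.603 TPM against 0.844 ± 0.301 TPM in control cells (SD, 3 libraries each), with 1 of the recovery libraries inside the control range. The dynamin-like GTPases MX1 and MX2, which trap viral nucleocapsids, ranged from 0.444 to 2.67 TPM. MX1 had 0.663, 1.03 and 1.08 TPM in acute cells, against 1.29, 1.51 and 2.15 TPM in control cells, without overlap. MX1 shares 562 bp of exon with TMPRSS2 on the opposite strand.

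ISG15 (chr1:1001138-1014540), a ubiquitin-like modifier and a sensitive reporter of interferon, was at 10.7, 10.3 and 8.37 TPM in control cells, 7.46, 8.05 and 8.03 TPM in acute cells, 9.25, 9.77 and 6.40 TPM in crisis cells, 6.04, 7.48 and 6.95 TPM in adapted cells and 8.10, 7.44 and 8.74 TPM in recovery cells. The acute and adapted libraries lay below those of control. Against control, its log2 fold change was −0.28 in acute cells (SE 0.14, limma adjusted p = 0.565) and −0.46 in adapted cells (SE 0.14, limma adjusted p = 0.114). ISG15 has the highest GC content of the tested members, at 63.4%, and after GC correction its log2 fold change in adapted cells was −0.20 (limma adjusted p = 0.479). HERC6, a relative of the ligase that attaches ISG15, was at 6.38, 6.56 and 6.82 TPM in control cells, 6.77, 6.16 and 7.95 TPM in acute cells, 7.87, 6.59 and 5.93 TPM in crisis cells, 6.54, 7.23 and 7.12 TPM in adapted cells and 8.13, 7.57 and 11.4 TPM in recovery cells. Its log2 fold change was 0.38 in recovery cells against control (SE 0.14, limma adjusted p = 0.111) and 0.32 against adapted cells (SE 0.14, limma adjusted p = 0.692). Recovery replicate 3 stood out, and without it these estimates were 0.22 and 0.15. HERC5, the main human ISG15 ligase, was at 1.20 to 3.09 TPM, and USP18, which removes ISG15 and damps the receptor, was at 0.616 to 1.53 TPM.

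IFIH1, the sensor MDA5 of long double-stranded RNA, ranged from 3.30 to 7.45 TPM and DDX60, a helicase that aids RNA sensing, from 2.67 to 6.47 TPM. Both had their highest value in recovery replicate 3. DDX60 was also high in 2 of the acute libraries, with 6.02, 5.40 and 3.75 TPM in acute cells, against 2.67, 3.06 and 3.96 TPM in control cells.

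IFI44 (chr1:78649796-78664078), a cytoplasmic protein of the response, showed the widest shift of the tested members. It was at 5.98, 5.87 and 9.88 TPM in control cells, 7.74, 7.51 and 6.84 TPM in acute cells, 7.33, 7.19 and 12.6 TPM in crisis cells, 13.2, 11.0 and 12.5 TPM in adapted cells and 8.53, 10.8 and 14.4 TPM in recovery cells. Adapted libraries lay above all control and acute libraries, and control replicate 3 and crisis replicate 3 were far above the rest of their groups. The log2 fold change was 0.71 in adapted cells against control (SE 0.21, limma adjusted p = 0.102) and 0.66 against acute cells (SE 0.21, limma adjusted p = 0.621). Recovery cells gave 0.58 against control (SE 0.21, limma adjusted p = 0.105). GC correction left 0.57 in adapted (limma adjusted p = 0.159) and 0.41 in recovery cells (limma adjusted p = 0.240), and the recovery estimate was 0.40 without recovery replicate 3. IFI44L, its paralog, whose gene lies in the same cluster on chromosome 1, did not show the same order. It had 11.4, 11.9 and 14.4 TPM in adapted cells, against 10.2, 10.7 and 13.8 TPM in control cells, with overlap.

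IFI6, a membrane protein that curbs cell death, ranged from 8.98 to 13.3 TPM. IFI35 ranged from 8.46 to 16.6 TPM and overlapped control at every stage. IFI27 did not exceed 2.06 TPM in any library.

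SP100, a scaffold of PML nuclear bodies, was at 52.0, 51.3 and 63.2 TPM in control cells, 66.2, 56.8 and 58.2 TPM in acute cells, 64.1, 59.7 and 70.6 TPM in crisis cells, 55.5, 69.3 and 61.3 TPM in adapted cells and 60.7, 64.4 and 78.7 TPM in recovery cells. Against control, the estimate was 0.22 log2 units in crisis (SE 0.12, limma adjusted p = 0.490) and 0.28 in recovery cells (SE 0.12, limma adjusted p = 0.133), with control replicate 3 inside the range of both groups. Without recovery replicate 3 the recovery estimate was 0.17. SP110, the neighbouring nuclear body gene, was at 17.6, 20.7 and 20.1 TPM in control cells, 19.2, 18.0 and 15.8 TPM in acute cells, 19.5, 18.6 and 17.6 TPM in crisis cells, 20.3, 16.2 and 18.8 TPM in adapted cells and 20.2, 18.3 and 18.7 TPM in recovery cells. In acute cells its log2 fold change was −0.13 (SE 0.11, limma adjusted p = 0.682), with overlap, and −0.06 without acute replicate 3.

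PARP14, an ADP-ribosyltransferase, was at 7.48, 6.92 and 9.50 TPM in control cells, 9.79, 7.10 and 6.98 TPM in acute cells, 8.87, 7.17 and 8.76 TPM in crisis cells, 10.9, 10.6 and 9.81 TPM in adapted cells and 9.31, 8.47 and 12.3 TPM in recovery cells. Adapted libraries were all higher than control ones, and acute replicate 1 nearly met the lowest adapted library. Its log2 fold change was 0.36 in adapted cells against control (SE 0.16, limma adjusted p = 0.214), 0.36 against acute cells (SE 0.16, limma adjusted p = 0.766) and 0.25 against control after GC correction. PARP9 and DTX3L encode the partners of a ubiquitin ligase complex and start 239 bp apart on opposite strands, with 139 bp of shared exon sequence. PARP9 ranged from 8.17 to 12.5 TPM and DTX3L from 9.87 to 14.7 TPM, and both peaked in recovery replicate 3.

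TRIM22 (chr11:5689610-5737089), an antiviral ligase that is also known as a p53 target, had the largest shift of the tested members in acute cells. It was at 32.3, 29.0 and 36.6 TPM in control cells, 55.6, 40.0 and 48.5 TPM in acute cells, 46.4, 35.5 and 45.8 TPM in crisis cells, 38.6, 46.1 and 43.8 TPM in adapted cells and 33.6, 39.3 and 57.9 TPM in recovery cells. The acute libraries exceeded all control libraries, and recovery replicate 3 was the highest of the 15 while recovery replicate 1 lay inside the control range. The log2 fold change was 0.54 in acute (SE 0.17, limma adjusted p = 0.360), 0.37 in crisis (SE 0.17, limma adjusted p = 0.437), 0.39 in adapted (SE 0.17, limma adjusted p = 0.216) and 0.38 in recovery cells (SE 0.17, limma adjusted p = 0.158). TRIM22 has the lowest GC content of the tested members, at 37.1%, and after correction these values were 0.44, 0.31, 0.22 and 0.18. Without recovery replicate 3 the recovery estimate was 0.16. TRIM21, an antibody receptor in the cytosol, ranged from 8.93 to 12.1 TPM with overlap at every stage.

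**Figure D2:**
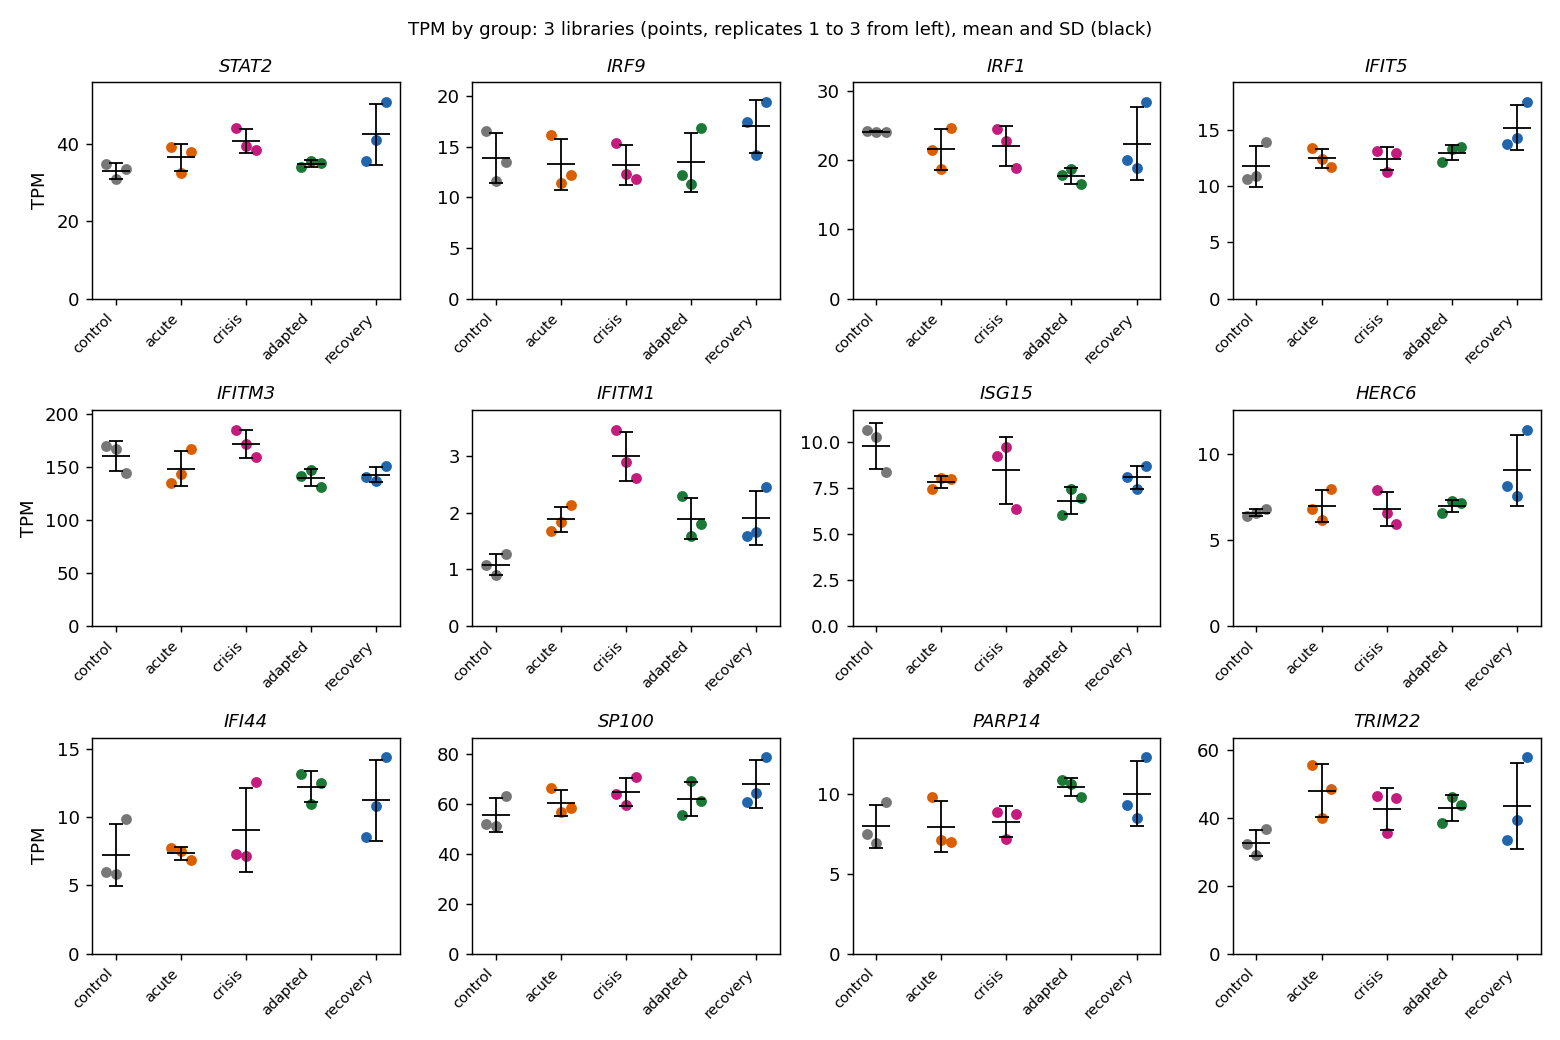
TPM of 12 interferon-stimulated genes by group, with a point per library (replicates 1 to 3 from left) and the mean and SD of 3 libraries in black. Crisis libraries of IFITM1 sit at 2.62 to 3.47 TPM, all above the control libraries, while the highest recovery point of STAT2, HERC6, IFI44 and TRIM22 is replicate 3.

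Members whose libraries did not overlap with control were counted beside the share of all genes that did the same. Of the 21 tested members, 1 was higher (9.83% of tested genes) and 1 lower (2.35%) in acute cells, and 1 was higher (13.0%) and 0 lower (2.5%) in crisis cells. In adapted cells 3 were higher (13.5%) and 2 lower (10.5%). In recovery cells 4 were higher (18.8%) and 0 lower (10.1%), these being STAT2, HERC6, IFIT3 and DTX3L. Of adapted against acute libraries, 3 members were higher (IFI44, IFIT3 and PARP14; 3.23%) and IRF1 was lower (8.51%), and of recovery against adapted libraries, 5 were higher (DTX3L, HERC6, IFIT3, IFIT5 and IRF1; 9.07%) and 0 lower (3.33%). Of the 14 members under 5 TPM, IFITM1 was higher and IRF7 and MX1 were lower in acute cells, where 7.69% of genes with a mean of 0.2 to 5 TPM were higher and 3.64% lower. IFITM1 and BST2 were higher and IRF7, OASL and HERC5 lower in crisis cells (8.67% and 4.8%). IFIT1, IFIT2, IFITM1 and BST2 were higher and HERC5 lower in adapted cells (7.61% and 6.84%). IFIT2, IFITM1 and BST2 were higher and IRF7 and MX2 lower in recovery cells (9.23% and 5.32%). In adapted against acute cells MX1 was higher (4.19%) and HERC5 lower (6.92%), and in recovery against adapted cells USP18 and HERC5 were higher (6.35%) and MX2 lower (4.59%). At each stage, members below 5 TPM thus lay on both sides of control, as did genes at that level in general.

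**Figure D3:**
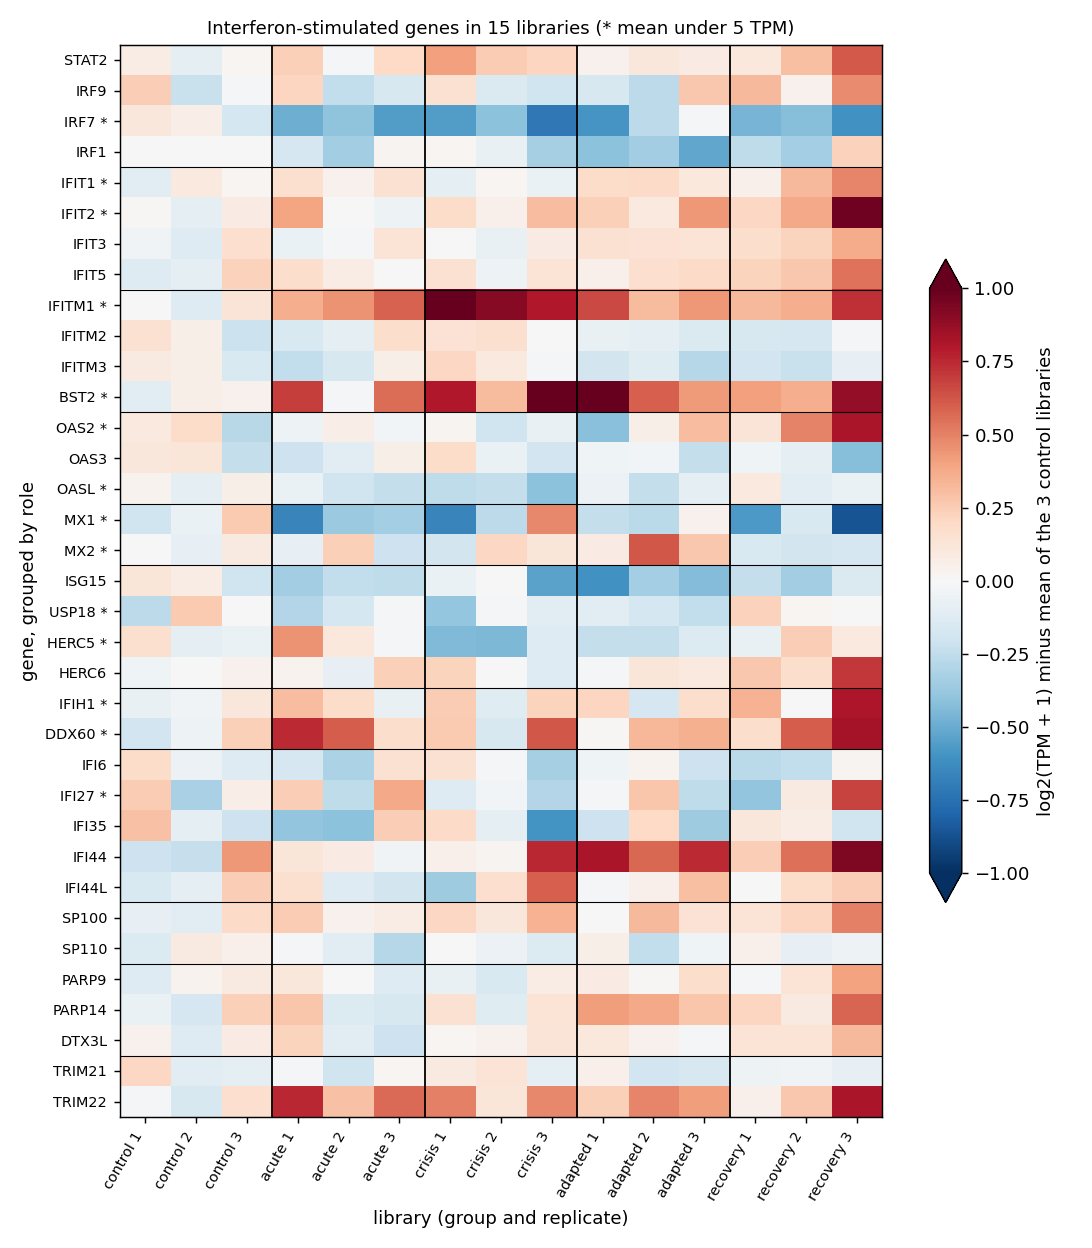
Level of the 35 interferon-stimulated genes in each library, as log2(TPM + 1) minus the mean of the 3 control libraries, with genes grouped by role and colours capped at 1 log2 unit in either direction. The column of recovery replicate 3 is mostly red, and it holds the highest value of 18 of the 35 genes.

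Recovery replicate 3 stood apart from the other libraries in the members. It held the highest of the 15 values for 18 of 35 members, made up of 12 of 21 tested members, where 23.3% of all tested genes peaked in it, and 6 of 14 members under 5 TPM, where 11.1% of genes at that level did. The sum of the members without IFITM2 and IFITM3 was 467 TPM in this library, against 365 and 381 TPM in the other recovery libraries. By group this sum was 349 ± 18.0 TPM in control, 366 ± 28.1 TPM in acute, 376 ± 19.4 TPM in crisis, 369 ± 11.1 TPM in adapted and 404 ± 54.9 TPM in recovery cells (SD, 3 libraries each). With IFITM2 and IFITM3 kept in, it was 556 ± 13.9 TPM in control, 560 ± 33.7 TPM in acute and 598 ± 27.0 TPM in crisis cells. Adapted cells then had 551 ± 15.9 TPM and recovery cells 590 ± 64.5 TPM, so the crisis mean was the highest. For recovery replicate 3 the labels give 46 d of induction and 17 d without it, and for the other recovery cultures 31 and 42 d followed by 18 and 46 d. Leukocyte markers other than CD68 summed to 1.06 TPM in recovery replicate 3 and to between 0.697 and 1.80 TPM over all libraries.

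Without recovery replicate 3, the median log2 fold change of the members in recovery cells against control was 0.09, against 0.18 with it, and 0 of 21 members, against 7, were higher at an unadjusted limma p under 0.05. The same share of all tested genes was 10.5% without this library and 19.7% with it. Then 1 member, IRF1, was lower (6.25% of all genes), with a log2 fold change of −0.30. With GC correction as well, the median without the library was −0.005 for members and 0.04 for all genes.

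**Figure D4:**
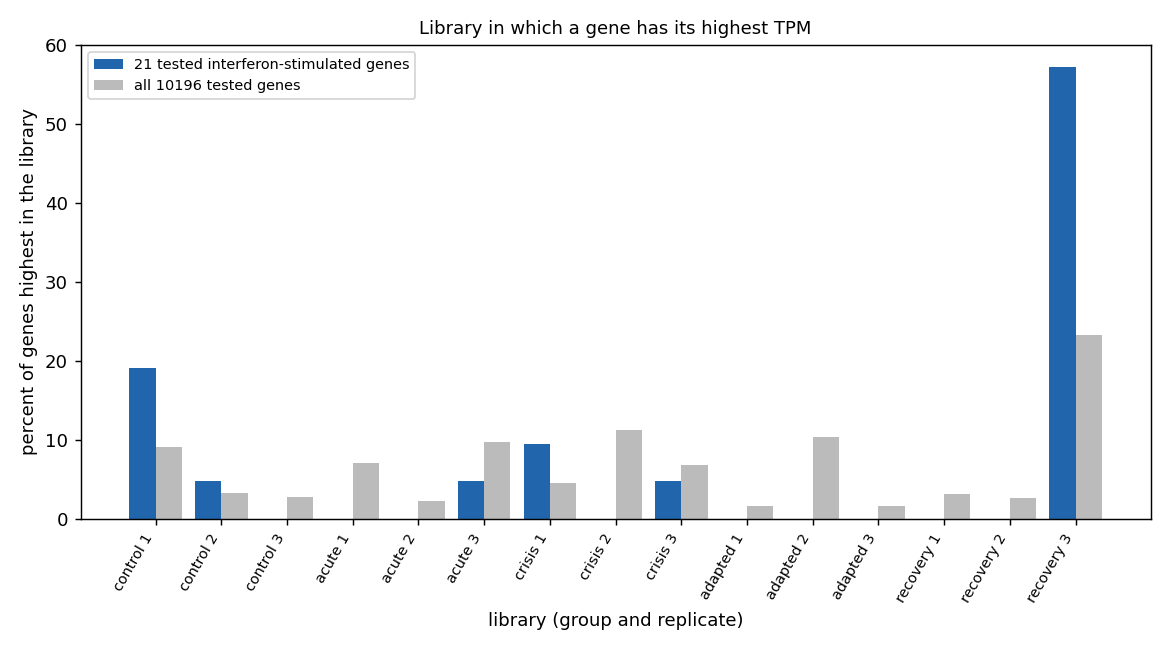
Percent of the 21 tested interferon-stimulated genes (blue) and of all 10196 tested genes (grey) that have their highest TPM in each library. Recovery replicate 3 holds 12 of the 21, and 23.3% of all genes.

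GC content moved with the fold changes of the members. Over the 21 genes, whose GC content ran from 37.1% to 63.4% with a median of 46.3%, Spearman's rho between GC content and log2 fold change was −0.671 for acute, −0.566 for crisis, −0.849 for adapted and −0.690 for recovery cells over control. All tested genes gave −0.517, −0.311, −0.643 and −0.670. The genes share libraries and base composition and are no independent points, so no p is given. Once the trend with GC content had been subtracted library by library (a loess), the rho of the members was −0.121, −0.387, −0.255 and −0.145, and their median log2 fold change was −0.04, 0.02, 0.04 and 0.11. The part of GC content in the single fold changes was not tested beyond this correction.

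**Figure D5:**
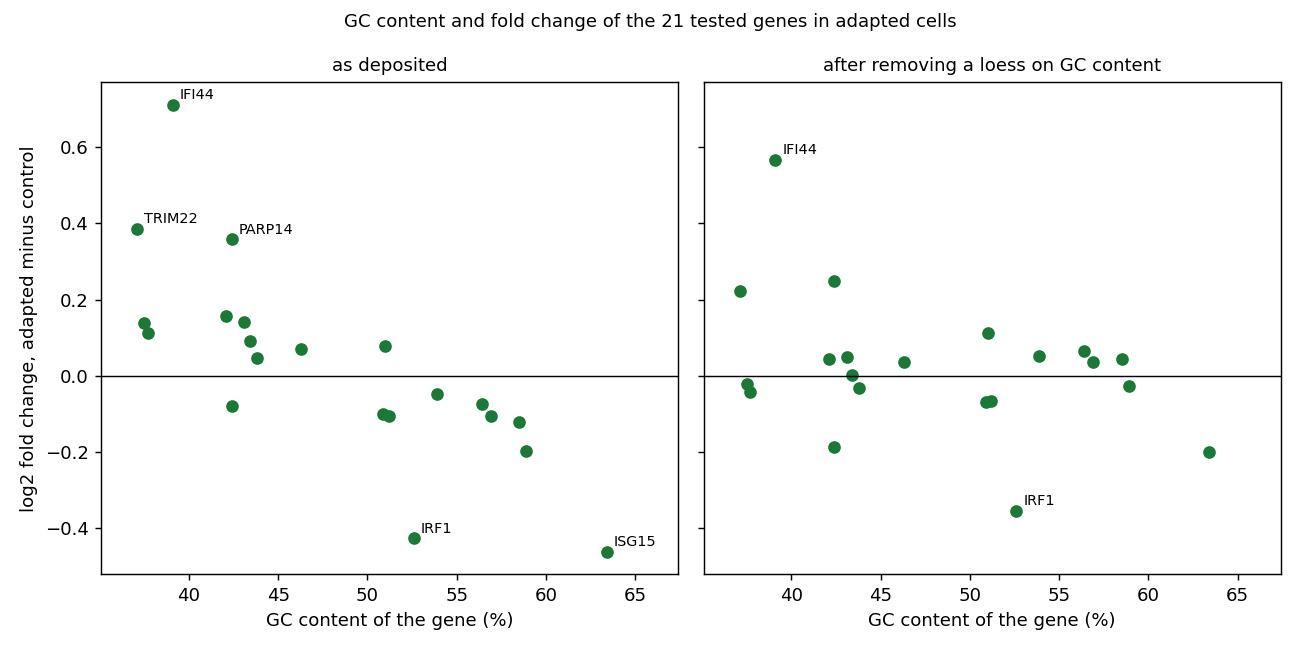
Log2 fold change of the 21 tested members in adapted against control cells, by the GC content of the gene, in the deposited values (left) and with the loess on GC content subtracted in each library (right). The downward slope on the left, with a rho of −0.849, is reduced to −0.255 on the right, where IFI44 stays at 0.57 and IRF1 at −0.35.

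Upstream of the members, the interferons themselves were nearly silent. Of 21 interferon genes, 13 were listed at 0 in all 15 libraries, IFNB1 and the type III genes IFNL1, IFNL2 and IFNL3 among them. The exception was IFNE, an epithelial type I interferon known for its constant expression in the reproductive tract, which ranged from 2.29 to 5.77 TPM. It was at 3.00, 2.29 and 4.58 TPM in control cells, 5.77, 3.20 and 3.26 TPM in acute cells, 4.60, 4.19 and 4.63 TPM in crisis cells, 3.47, 3.72 and 5.56 TPM in adapted cells and 4.48, 4.78 and 4.89 TPM in recovery cells, with overlap between each stage and control. No other interferon gene exceeded 0.83 TPM.

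Receptors and kinases were expressed at every stage. Over the libraries, IFNAR1 ranged from 28.9 to 50.1 TPM, IFNGR2 from 30.3 to 38.4 TPM, JAK1 from 46.8 to 66.5 TPM and TYK2 from 29.2 to 42.0 TPM. None of the 5 tested receptor genes and none of the 6 tested genes of JAK-STAT signalling was called in any comparison. At an unadjusted limma p under 0.05, 3 of the 5 receptors and 1 of the 6 signalling genes were higher in recovery cells than in control, where 19.7% of all tested genes were, or 10.5% without recovery replicate 3. Of the 5 receptors, 1 was higher in acute (7.52% of all genes), 2 in crisis (9.32%) and 0 in adapted cells (11.4%). IFNAR2 had 17.0, 16.9 and 15.1 TPM in acute cells, against 11.9, 14.0 and 9.34 TPM in control cells, without overlap. At the later stages it overlapped control. IFNAR1 had 41.3, 40.5 and 50.1 TPM in recovery cells, against 33.4, 28.9 and 37.2 TPM in control cells, a log2 fold change of 0.40 (SE 0.13, limma adjusted p = 0.0926) that was 0.30 without recovery replicate 3.

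The sensing arm was uneven. CGAS, the cytosolic DNA sensor, was at 0.0249 to 0.275 TPM, while its partner STING (TMEM173 in the table) was at 13.0 to 21.5 TPM and MAVS, the adaptor of RNA sensing, at 22.8 to 26.9 TPM. Of 10 tested sensing genes, 0 were called by limma in any comparison, and at an unadjusted p under 0.05 there were 1 higher (11.4% of all genes) and 3 lower (9.01%) in adapted cells and 4 higher (19.7%) and 2 lower (8.88%) in recovery cells, each against control. IKBKE, a kinase that activates IRF3, came closest, with 7.58, 7.66 and 7.41 TPM in adapted cells, against 13.0, 11.9 and 11.6 TPM in control cells and a log2 fold change of −0.62 (SE 0.13, limma adjusted p = 0.0386, or 0.126 after GC correction). Of the 10 genes that remove or mask self nucleic acids, such as ADAR and SAMHD1, 0 were called, and at an unadjusted limma p under 0.05 there were 2 higher (19.7% of all genes) and 2 lower (8.88%) in recovery cells than in control.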

How the data were processed

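The deposited table gives TPM per gene, which the authors made from single-end reads by Kallisto with hg38 as the reference. It also carries columns of their own DESeq2 comparisons, which were not used. Their comparisons kept genes of at least 5 TPM, the minimum also used here. Of 60603 entries, 45 were identical pseudoautosomal copies and were dropped. Of the 60558 genes kept, 60261 were matched to GENCODE release 44 for position, strand and GC content. Columns of values with no sample numbered 0.

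Values were tested as log2(TPM + 1), a scale on which low genes show less than their true change. A model of the 5 groups was fitted to the 10196 genes that averaged 5 TPM or more, over all 15 libraries, with limma 3.58.1 in R 4.3.3. The steps were lmFit, contrasts.fit and eBayes, the last with the trend option, and the prior had 6.63 degrees of freedom. Tests were 2-sided. On simulated data 1 unchanged gene was called. Promoter windows are those of RefSeq on GRCh38.p14, and plots were drawn with matplotlib 3.10.9.

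The members and the lists were chosen with earlier results of these data known. Values in every library are given for the 3 tested members of smallest p in each comparison, the 3 of highest mean, and STAT2, IRF9 and IRF7. IFITM1, BST2, and members outside this rule that are named with their values or in counts of libraries without overlap, were picked with their values in view. Of the 36 listed members, 1 was not analysed here. A gene of the signalling list is not reported here and was left out of the counts of that list.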

Additional observations from a re-analysis of the deposited data

How the results depend on the processing

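The alternatives were pseudocounts of 0.1 and 5, a filter of 1 TPM or none, median-of-ratios scaling, GC correction by a loess (span 0.3), a fit with no variance trend, calls at 0.05, fits to only the 6 libraries of a comparison, a replicate block with and without GC correction, and each library left out in turn. The count of members called was 0 under all 188 of these settings of the 7 counts, the replicate block included. Calls at 0.05 were counted only in the fit described above, and some tested members passed 0.05 under other settings. The lowest limma adjusted p was 0.0331 for IFI44 in adapted cells against control. In recovery cells against control it was 0.0296 for IFI44, 0.0303 for IFIT5 and 0.0478 for STAT2. Of 830 alternative values in all, 829 kept their side of the threshold or moved by less than the spread between libraries. As no member was called, a single-gene value counted as kept if it stayed uncalled with the same sign, whatever its size. In recovery cells against control, the estimate of IFIT5 fell from 0.34 to as low as 0.08, and that of IFI44 from 0.58 to 0.25. The tally thus does not measure how stable the sizes were. The medians over members in acute, crisis and adapted against control and in adapted against acute cells, all close to 0, changed sign under some settings. The exception among the 830 values, chosen after seeing the data, was GC correction without recovery replicate 3. Under it the median log2 fold change of the members in recovery cells against control was −0.005 in place of 0.18. With 1 library left out, that median ran from 0.09 without recovery replicate 3 to 0.25 without control replicate 3. The fits of IFITM1 with a filter of 1 TPM together with GC correction or with each library left out were also added after seeing the data. The labels do not say whether replicate numbers pair the libraries, and correlations between libraries did not settle it. The mean correlation of deviations was 0.022 between libraries of the same number and −0.010 between others, and 9 of 15 libraries were closest to their own number. TPM holds no depth, so no limit of detection could be set for members near 0.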

Other observations

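A further list of 25 interferon-stimulated genes outside the 36 was followed in the same fits. Of its 14 tested genes, 0 passed an adjusted p of 0.01 in any comparison by limma, while 4 were higher and 0 lower in recovery than in control cells at an unadjusted p under 0.05. Of all tested genes, 19.7% were higher and 8.88% lower, and 10.5% were higher without recovery replicate 3. The guanylate-binding proteins GBP1 and GBP2, GTPases that coat intracellular pathogens and respond mainly to interferon gamma, moved the most. GBP1 had 42.8, 33.7 and 63.5 TPM in recovery cells, against 25.4, 19.3 and 29.6 TPM in control cells, without overlap, and a log2 fold change of 0.86 (SE 0.19, limma adjusted p = 0.0440). Without recovery replicate 3 this was 0.62 (limma adjusted p = 0.177). GBP2 had 9.96, 11.8 and 21.8 TPM in recovery cells, against 7.63, 5.54 and 10.2 TPM in control cells, a log2 fold change of 0.78 (SE 0.23, limma adjusted p = 0.0738), which was 0.47 (limma adjusted p = 0.277) without recovery replicate 3. SAMD9L, a restriction factor of poxviruses, was at 13.8 TPM in recovery replicate 3 and at 3.49 to 7.60 TPM in the other 14 libraries. Recovery replicate 3 was the highest library for 7 of these 14 genes, for 4 of 5 tested interferon receptor genes and for 3 of 6 genes of JAK-STAT signalling, where 23.3% of all tested genes peaked in it. The same held for 5 of 10 genes that act on self nucleic acids, 3 of 10 sensing genes, 3 of 5 mesenchymal markers (CDH2, COL1A1 and FN1), 1 of 3 epithelial markers and 1 of 2 of the pigment epithelium. CXCL10, CXCL11 and CMPK2 were listed at 0 in all 15 libraries, and RSAD2 did not exceed 0.0673 TPM.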
